A study of Homo sapiens with 10 samples.

Results

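A group of 10 genes of the cellular response to low oxygen were followed through the differentiation of human embryonic stem cells: HIF1A and EPAS1, which encode oxygen-regulated transcription factor subunits, EGLN1 and EGLN3, which encode enzymes that mark those subunits for destruction, and the hypoxia-induced genes NDRG1, CA9, BNIP3, ADM, DDIT4 and ANKRD37. The members were taken by name, and all 10 were found in every one of the 4 deposited tables, among 22848 gene symbols present in all 4. Poly-A RNA was measured in undifferentiated WA09 cells, a long-established line of human embryonic stem cells (hESC). The same was done in 4 derivatives of the line, labelled definitive endoderm (DE), splanchnic mesoderm (here MESO), neural progenitors (called NPC) and pre-neural crest (NCSC), with 2 libraries for each of the 5 cell types. Whether the 2 libraries came from separate cultures is not stated in the labels, so the authors' p-values may measure technical spread alone. The hESC cultures ran for 4 days in IGF-I (200 ng/mL), heregulin and activin A (each 10 ng/mL) and FGF (8 ng/mL). DE cultures ran equally long in activin A (100 ng/mL) and FGF (8 ng/mL), with Wnt-3a (25 ng/mL) added on the first day and neither IGF-I nor heregulin. To the factors of hESC, the MESO cultures added BMP-4 (100 ng/mL) plus Wnt-3a (25 ng/mL), again for 4 days. NPC were seeded at 90000 cells/cm2, against 50000 cells/cm2 for the 4-day cultures, and were grown for 6 days with IGF-I, heregulin, SB431542, an inhibitor of activin receptors, and LDN at 500 nM, an inhibitor of BMP receptors. NCSC were seeded at the same 90000 cells/cm2 and grown for 6 days with FGF, IGF-I, heregulin, SB431542 and BIO, an inhibitor of GSK3. All 5 cell types thus came from 1 line, and the oxygen tension of the cultures is not given in the sources used here.

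In cells with enough oxygen, the prolyl hydroxylases encoded by the EGLN genes hydroxylate the HIF alpha subunits, the VHL ubiquitin ligase binds the hydroxylated protein, and the proteasome destroys it. When oxygen falls the alpha subunit escapes, pairs with ARNT, and binds a short core sequence, ACGTG or GCGTG, near its targets. Regulation is therefore mainly of the protein, and RNA of HIF1A or EPAS1 is no measure of HIF activity. EGLN1 and EGLN3 are themselves HIF targets in many cells and so form a feedback loop. EPAS1 is known for its expression in endothelium and other selected tissues, whereas HIF1A is expressed almost everywhere. Several of the target genes also answer to other signals, such as DDIT4 to glucocorticoids and to the stress factor ATF4.

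The stretches of DNA just before the start sites of 5 of the genes are shown because these genes span the patterns described below: BNIP3, DDIT4 and EGLN1 rose in 2 or 3 of the derivatives and fell in none, EPAS1 rose in 1 and fell in 2, and CA9, a classical hypoxia marker, stayed low. Each is the 250 bases before the start, from RefSeq on the GRCh38.p14 build, 5′ to 3′ on the gene's strand, with every ACGTG or GCGTG, on either strand, in capitals; on the opposite strand the cores read CACGT and CACGC. The BNIP3 stretch is chr10:131981924-131982173 on the minus strand, the DDIT4 stretch chr10:72273674-72273923 on the plus strand, the EGLN1 stretch chr1:231422288-231422537 on the minus strand, the EPAS1 stretch chr2:46297157-46297406 on the plus strand and the CA9 stretch chr9:35673678-35673927 on the plus strand.
BNIP3: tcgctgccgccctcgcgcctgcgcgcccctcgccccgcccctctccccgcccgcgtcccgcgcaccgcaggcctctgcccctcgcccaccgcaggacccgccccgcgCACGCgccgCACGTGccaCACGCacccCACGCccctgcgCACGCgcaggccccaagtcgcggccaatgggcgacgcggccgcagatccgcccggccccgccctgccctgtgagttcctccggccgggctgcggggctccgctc
DDIT4: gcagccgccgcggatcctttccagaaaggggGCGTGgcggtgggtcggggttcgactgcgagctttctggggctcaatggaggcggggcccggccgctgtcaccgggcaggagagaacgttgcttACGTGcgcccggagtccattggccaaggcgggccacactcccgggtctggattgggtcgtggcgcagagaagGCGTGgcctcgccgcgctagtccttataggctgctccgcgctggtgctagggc
EGLN1: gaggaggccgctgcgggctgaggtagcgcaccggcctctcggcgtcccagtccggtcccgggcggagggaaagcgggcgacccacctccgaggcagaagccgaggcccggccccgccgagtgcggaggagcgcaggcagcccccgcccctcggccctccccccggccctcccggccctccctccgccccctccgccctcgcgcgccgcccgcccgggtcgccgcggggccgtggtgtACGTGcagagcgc
EPAS1: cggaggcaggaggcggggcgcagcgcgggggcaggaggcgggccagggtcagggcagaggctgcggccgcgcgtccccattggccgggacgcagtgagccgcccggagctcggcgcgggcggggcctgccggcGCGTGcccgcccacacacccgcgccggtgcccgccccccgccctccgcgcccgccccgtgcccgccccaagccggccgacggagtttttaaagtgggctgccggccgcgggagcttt
CA9: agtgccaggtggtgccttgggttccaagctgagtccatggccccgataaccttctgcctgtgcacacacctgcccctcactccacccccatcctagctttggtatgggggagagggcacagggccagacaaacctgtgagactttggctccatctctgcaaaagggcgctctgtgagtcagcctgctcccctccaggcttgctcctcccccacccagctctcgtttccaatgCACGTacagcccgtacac

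BNIP3 held 2 matches to ACGTG, which overlap in a single palindromic CACGTG between bases -134 and -129 before the start, and 4 matches to GCGTG, all on the opposite strand. DDIT4 held ACGTG at -125 and GCGTG at -219 and -53. EGLN1 held ACGTG at -13, and CA9 held it on the opposite strand from -18. EPAS1 held GCGTG at -117 and no ACGTG. Among the members not shown, ANKRD37 held 3 matches to ACGTG, of which 2 overlap in a CACGTG, while ADM and the first of the 2 promoters of HIF1A held 1 GCGTG each and EGLN3 held neither core. Promoters were matched for 9 of the 10 members, NDRG1 being the other. Of these 9 genes 5 held ACGTG, 5 held GCGTG and 8 held at least 1 of the cores, against 21.74%, 36.22% and 47.41% of all 27305 genes with a promoter. Over the 35116 promoters counted singly the shares were 18.51%, 32.22% and 43.21%. A match describes these letters and is not evidence of binding.

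Each deposited table holds 1 level for hESC and 1 for the derivative in FPKM, a level scaled to transcript length and to the number of mapped fragments, so the 2 libraries of a cell type had already been combined. No spread between libraries and no test of this work could be had. "Rose" and "fell" below mean that the authors' q-value, their p-value corrected for the number of loci, was below 0.05, and a change is the difference in log2(FPKM + 1), derivative less hESC of the same table, which understates the change of low genes. The hESC column recurs in all 4 tables. It is the same pair of libraries estimated again and not a replicate, and its highest value exceeded its lowest by between 1.14-fold for BNIP3 and 1.46-fold for EGLN1 in 9 of the members, but by 4.31-fold for CA9. A derivative placed above, among or below the 4 hESC values is therefore only described, and no separation beyond the spread of cultures is shown. The share of all loci lying outside their hESC values was not counted. Because the 4 comparisons share their hESC libraries, a low or high hESC value would move all of them, and derivatives were not tested against each other. The number of reads behind a level is unknown. The DE table stood apart in that its lowest q-value was 0.0186, against 0.000868 or lower in the other 3, and 4.89% of its loci had a deposited p-value below 0.05, against 24.2% to 46.0% in the others. Labelled identities were checked against defining markers: 3 of 4 endoderm markers rose in DE, 4 of 4 mesoderm markers in MESO and 4 of 4 neural markers in NPC. The mesoderm marker GATA4 also rose in DE, to 56.1 FPKM, against 49.3 FPKM in MESO. The endoderm marker CXCR4 rose in all 4 derivatives, to 176 FPKM in DE and 10.6 to 16.6 FPKM in the others, and GATA6 rose in MESO to 9.84 FPKM. Of 4 hESC markers none was called in DE, where their sum went from 1379 to 352 FPKM. In MESO 4 fell, in NPC 3 fell and 1 rose, and in NCSC 3 fell. In NCSC PAX3 rose from 0.0169 to 18.6 FPKM and MSX1 from 0.197 to 1.46 FPKM, while PAX7 and ZIC1 stayed near 0 at 0.0512 and 0.116 FPKM. MSX1 rose further in MESO, to 47.7 FPKM, and the neural marker SOX1 stood at 9.56 FPKM in NCSC and 5.24 FPKM in NPC, having risen in both.

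The calls of the hypoxia genes differed between the cell types. In MESO 6 of the 10 rose, HIF1A, EPAS1, EGLN1, NDRG1, BNIP3 and DDIT4, and none fell. In NCSC EGLN1, NDRG1, BNIP3 and DDIT4 rose while EPAS1 and EGLN3 fell, and in NPC EGLN1 and DDIT4 rose while EPAS1 and ADM fell. In DE none passed. These counts stand against the share of all tested loci that rose or fell in the same table. That share was 9.05% rising and 5.38% falling of 14771 loci in MESO, 12.0% and 24.8% of 14842 in NPC, 10.2% and 19.8% of 14847 in NCSC, and 0.406% and 0.0203% of 14764 in DE. The 2 rising and 2 falling members in NPC, and the 2 falling members in NCSC, are near those shares. So are the lack of calls in DE and the lack of falls in MESO. These counts are no result about the genes. The median change of the members was 1.13 in MESO, 1.07 in NCSC, 0.16 in DE and 0.02 in NPC on the log2 scale, beside medians over all tested loci of 0.06, -0.22, 0.04 and -0.25. NPC and NCSC were thus shifted downward as a whole, and a member at 0 there lay above the middle of the table. After the changes were centred on the median of loci with at least 1 FPKM, each of the 16 called changes kept its direction. In DE, where authors' calls were few, 1 member had a deposited p-value below 0.05 before correction, against 6, 5 and 7 in MESO, NPC and NCSC. Over all tested loci the shares with such a p-value were 4.89% in DE, 24.2% in MESO, 46.0% in NPC and 41.1% in NCSC. The counts in DE and NPC are near those shares and are no result about the genes.

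**Figure D1:**
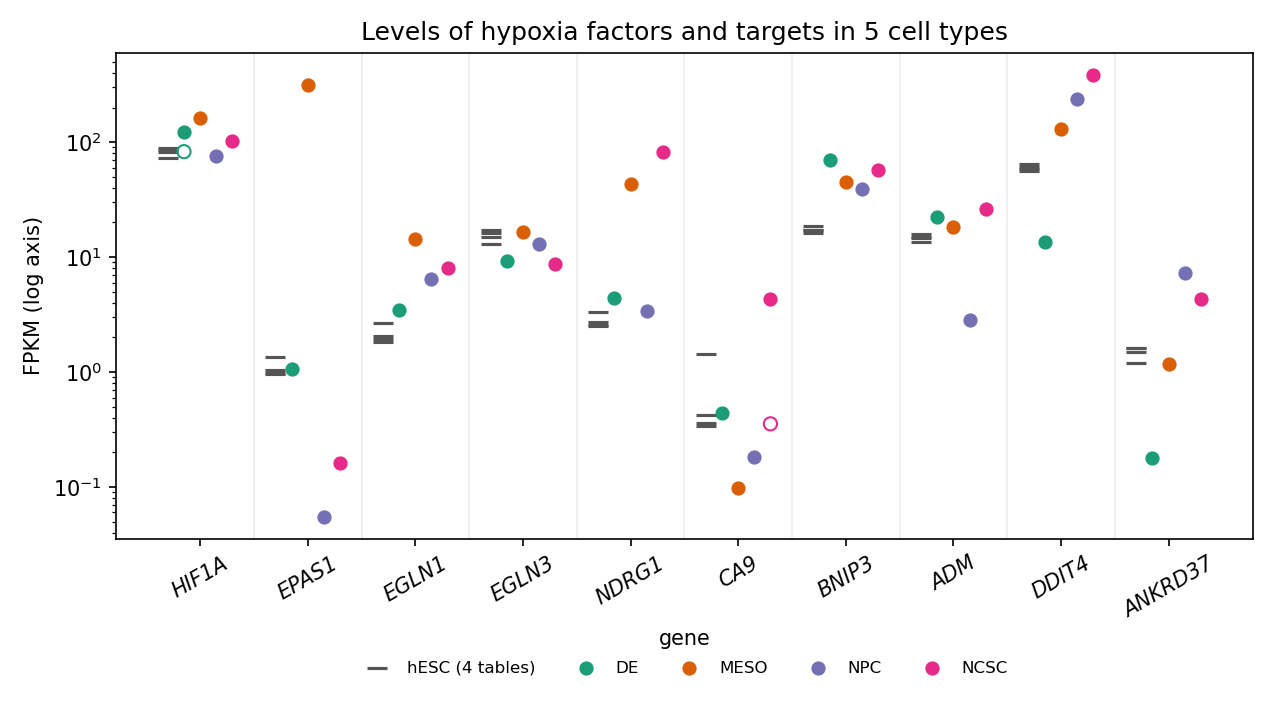
Level of each gene in FPKM on a log axis, with the 4 hESC values as bars and 1 point per derivative; open points are the rows of HIF1A in DE and CA9 in NCSC that lie among genes of the gene's own strand. EPAS1 in MESO stands at 316 FPKM above all of its other values, and DDIT4 climbs from 13.4 FPKM in DE to 383 FPKM in NCSC.

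HIF1A, the broadly expressed alpha subunit, was abundant in every cell type. It stood at 73.2 to 88.5 FPKM in the 4 hESC columns, at 161 FPKM in MESO, 103 FPKM in NCSC and 75.0 FPKM in NPC. MESO lay furthest above the hESC values, NCSC lay just above them, and NPC lay among them. The rise in MESO was 2.2-fold, a log2 change of 1.12, with a statistic of 2.03 and q = 0.0246 in the authors' deposited table. The changes in NCSC, 0.33, and NPC, -0.24, did not pass, with q = 0.387 and q = 0.488 in the authors' deposited table, and the value in NPC turned to 0.04 after centring.

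In DE the level of HIF1A depended on which row was read. The symbol was listed on 12 rows of the DE table, 11 of MESO, 9 of NPC and 5 of NCSC, all at the HIF1A locus (hg19, chr14:62162118-62215807, on the plus strand). The row with the highest mean, which the rule keeps, gave 84.8 FPKM in hESC and 121.7 FPKM in DE, a change of 0.52 with q = 0.999 in the authors' deposited table. The identifiers of that row lay among genes of the minus strand (20 of the 20 nearest by number). In each table exactly 1 row of HIF1A lay among plus-strand genes, and in DE this row gave 69.5 FPKM in hESC and 82.6 FPKM in DE, a change of 0.25. A further row of DE, also among minus-strand genes, went the other way, from 53.0 FPKM in hESC to 0 in DE. That change of -5.76 did not pass, with q = 0.999 in the authors' deposited table. The direction of HIF1A in DE thus also differed between rows. By the rule's rows the order of levels was MESO, DE, NCSC, hESC and NPC, and by the own-strand rows it was MESO, NCSC, DE, hESC and NPC, so DE and NCSC change places. Whether the library kit marks strand is not given in the sources used here, and without strand the reads of a gene and of an overlapping antisense transcript cannot be told apart.

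**Figure D2:**
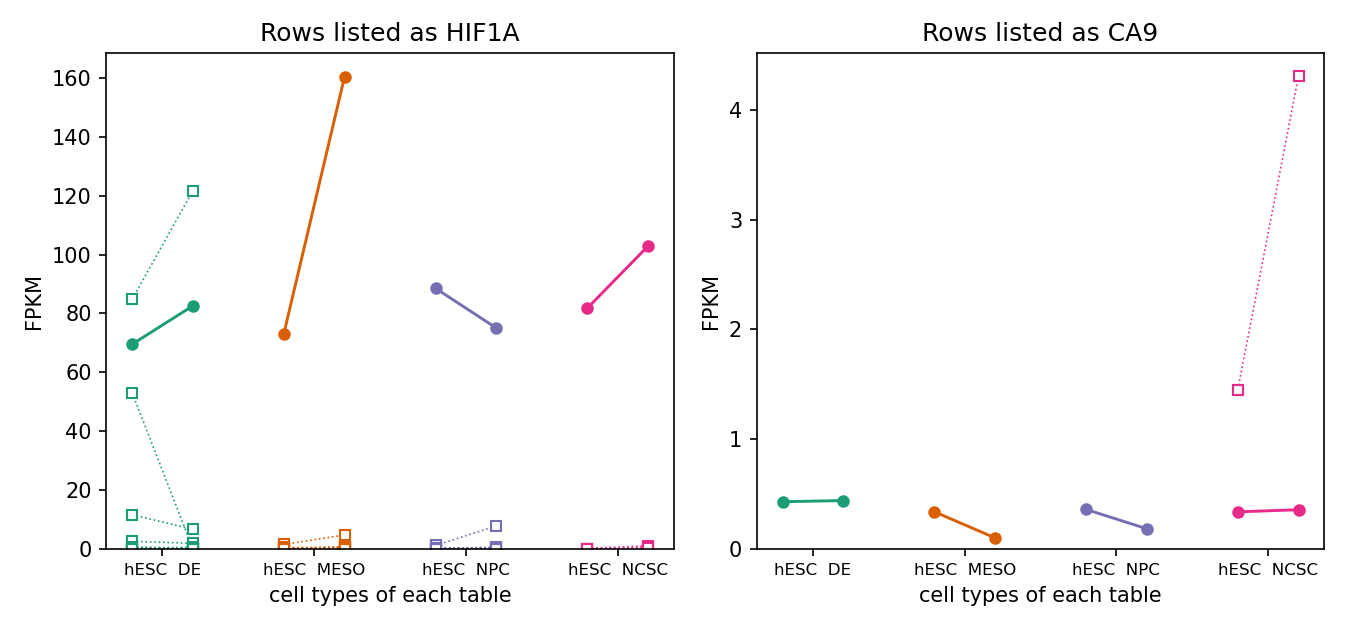
FPKM of every deposited row listed as HIF1A (left) and CA9 (right), hESC and derivative joined by a line within each table; filled circles are rows numbered among genes of the gene's own strand, open squares the other rows. In DE the HIF1A row with the highest mean, 84.8 to 121.7 FPKM, is an open square, as is the CA9 row of NCSC, 1.45 to 4.31 FPKM.

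EPAS1, the more restricted alpha subunit (hg19, chr2:46524535-46614078), was nearly silent in every cell type but MESO. Its 4 hESC values were 0.964 to 1.35 FPKM, and it stood at 1.06 FPKM in DE, 316 FPKM in MESO, 0.0550 FPKM in NPC and 0.163 FPKM in NCSC. The MESO value lay far above all others, DE lay among the hESC values, and NPC and NCSC lay below them. The 328-fold rise in MESO, a log2 change of 7.34, had a statistic of 8.85 and q = 0.000868, the lowest q of the authors' deposited table. It was the fifth highest change of the 14771 loci. Between subunits, HIF1A exceeded EPAS1 in hESC, DE, NPC and NCSC, and in MESO EPAS1 stood above HIF1A, at 316 against 161 FPKM. In NPC EPAS1 was 19.1-fold lower than in hESC, a log2 change of -0.96 with q = 0.00354 in the authors' deposited table. In NCSC it was 6.03-fold lower, a change of -0.77 with q = 0.00484 in the authors' deposited table. Both falls started from about 1 FPKM. Both calls were lost with a minimum log2 change of 1, and the NCSC call also with loci under 1 FPKM in both cell types left out.

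EPAS1 is a known endothelial gene, and MESO cultures could hold other cells, so the marker lists were read beside its level. The summed level of 6 endothelial markers went from 15.5 FPKM in hESC to 94.5 FPKM in MESO. Of the 5 markers tested 2 rose, where 9.05% of all loci rose. These were KDR, the main VEGF receptor, from 6.75 to 55.9 FPKM, and TEK, the angiopoietin receptor, from 6.84 to 37.2 FPKM. PECAM1 and CDH5, the defining junction genes of endothelium, stood at 0.0701 and 0.833 FPKM in MESO, and 4 of the 6 markers were below 1 FPKM. All 7 amnion and trophoblast markers rose in MESO, and their sum went from 4.02 to 606 FPKM, with GABRP from 1.18 to 230 FPKM, GATA3 from 0.383 to 114 FPKM, and CGA, listed at 0 in hESC, at 95.3 FPKM. That sum was 8.48 FPKM in DE, 0.650 FPKM in NPC and 0.685 FPKM in NCSC. The part of amnion-like cells in the EPAS1 level was not tested. In bulk RNA of this kind more cells of a type and more RNA per cell cannot be told apart.

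Over the 5 cell types, the genes whose centred log2(FPKM + 1) lay nearest to EPAS1 among 10740 genes reaching 5 FPKM were GABRP, HAPLN1 and COL3A1, at Euclidean distances of 0.57, 0.77 and 0.91. GABRP encodes a GABA receptor subunit, HAPLN1 a hyaluronan link protein and COL3A1 a fibrillar collagen. All 3 were high in MESO, at 230, 241 and 202 FPKM, and below 2 FPKM in the other 4 cell types. HIF1A by the rule's rows lay nearest to BLZF1, MYO9B and CMPK1, at distances of 0.14, 0.15 and 0.16. With its own-strand row in DE the nearest were NOD1, NDUFAF3 and ZNF277, so none of the 3 neighbours of HIF1A was kept.

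Of the other HIF subunits, ARNT2, a partner subunit best known from the nervous system, fell in MESO from 1.98 to 0.296 FPKM and rose in NPC from 2.33 to 11.7 FPKM. In NCSC it went from 2.09 to 3.46 FPKM and in DE from 2.03 to 1.25 FPKM, neither of which passed. HIF3A, an alpha subunit with variants that restrain the others, did not pass in any table and lay between 3.64 FPKM in MESO and 11.0 FPKM in DE. ARNT, the common partner, shared its row with another symbol in all 4 tables and was not counted.

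EGLN1, the main HIF prolyl hydroxylase (hg19, chr1:231499496-231560790), was low in hESC and higher in every derivative. In the 4 hESC columns it stood at 1.84 to 2.69 FPKM, and it stood at 3.49 FPKM in DE, 14.2 FPKM in MESO, 6.42 FPKM in NPC and 8.08 FPKM in NCSC. All 4 derivative values lay above all 4 hESC values, which again carries no spread between libraries. It rose 5.29-fold in MESO, 3.10-fold in NPC and 4.16-fold in NCSC, with log2 changes of 2.05, 1.27 and 1.62 and q = 0.00155, 0.000323 and 0.000455 in the authors' deposited tables. The 1.89-fold difference in DE, a change of 0.66, did not pass. EGLN1 and DDIT4 were the members that rose in 3 of the 4 tables.

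EGLN3, the sister hydroxylase that hypoxia induces strongly in many cells (hg19, chr14:34393420-34420284), rose in none of the 4 tables. Its level in hESC was 12.9 to 17.2 FPKM, and it stood at 9.24 FPKM in DE, 16.4 FPKM in MESO, 13.1 FPKM in NPC and 8.70 FPKM in NCSC. MESO and NPC lay among the hESC values, and DE and NCSC lay below them. The 1.85-fold lower level in NCSC, a log2 change of -0.82, passed with q = 0.0360 in the authors' deposited table, and the other 3 changes, of -0.44, 0.14 and -0.37, did not. The NCSC call was lost with normal p-values from the deposited score, a minimum log2 change of 1 or a q-value below 0.01. In hESC EGLN3 was therefore the more abundant of the pair per length, and in MESO the levels were 16.4 and 14.2 FPKM.

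Of 8 tested other genes of oxygen sensing and HIF degradation, none passed in DE or NCSC, 1 rose in MESO and 1 fell in NPC. Of all loci 9.05% rose and 5.38% fell in MESO, and 12.0% and 24.8% in NPC. In NCSC 10.2% rose and 19.8% fell, and in DE 0.406% and 0.0203%. The counts of the list are near those shares and are no result about its genes. SIAH2, a ubiquitin ligase that degrades EGLN proteins, rose in MESO from 8.05 to 41.6 FPKM. TCEB1, elongin C of the VHL ligase, fell in NPC from 30.8 to 16.0 FPKM. VHL itself did not pass in any table. Of the coactivators and their competitor, EP300 and CREBBP did not pass anywhere, and CITED2, a HIF target that competes with HIF for these coactivators, rose in MESO from 50.5 to 130 FPKM and in NCSC from 54.0 to 150 FPKM. Its values in DE, 30.2 to 77.3 FPKM, and in NPC, 57.3 to 88.9 FPKM, did not pass.

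**Figure D3:**
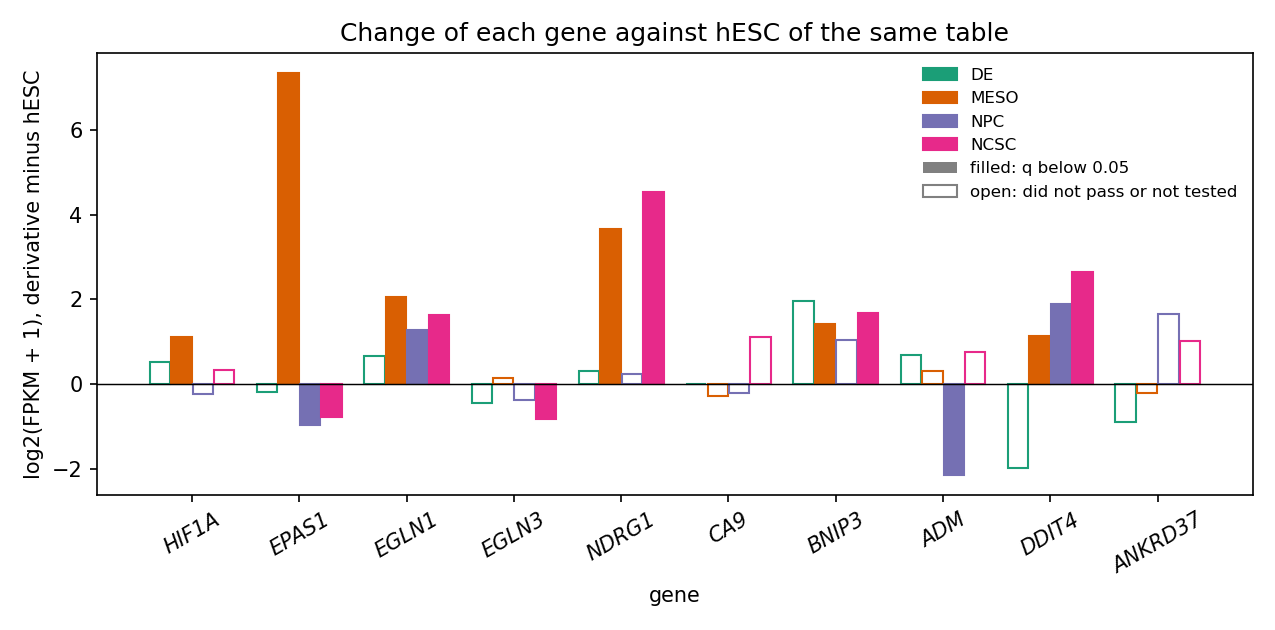
Change of each gene in log2(FPKM + 1), derivative minus hESC of the same table, with filled bars where the authors' q-value was below 0.05 and open bars where it was not or no test was made. The bars are single values without error; EPAS1 reaches 7.34 in MESO and lies below 0 in NPC and NCSC, and no bar of DE is filled.

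NDRG1, a stress-responsive gene induced by hypoxia and linked to differentiation (hg19, chr8:134249413-134309547), rose in MESO and NCSC. Its hESC values were 2.53 to 3.34 FPKM, and it stood at 4.36 FPKM in DE, 43.5 FPKM in MESO, 3.38 FPKM in NPC and 81.8 FPKM in NCSC. MESO and NCSC lay far above the hESC values, and DE and NPC stood just above the highest of them. The 17.2-fold rise in MESO was a log2 change of 3.66 with q = 0.000868 in the authors' deposited table. The 32.1-fold rise in NCSC was a change of 4.54 with q = 0.000455 in the authors' deposited table, and it was rank 30 of 14847 loci. The NPC value did not pass, with q = 0.553 in the authors' deposited table, so the 6-day cultures of NPC and NCSC differed in the call for NDRG1, a difference that was not itself tested. The relatives of NDRG1 gave other values. NDRG2 fell in NPC from 9.06 to 0.259 FPKM and in NCSC from 8.41 to 1.28 FPKM, and NDRG3 fell in NPC from 18.0 to 9.61 FPKM. In DE NDRG3 went from 17.1 to 16.8 FPKM and NDRG4 from 13.6 to 31.0 FPKM without passing.

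DDIT4, which inhibits the growth kinase complex of mTOR (hg19, chr10:74033676-74035797), was abundant in hESC and rose in 3 derivatives. It stood at 55.5 to 64.3 FPKM in the hESC columns, at 13.4 FPKM in DE, 130 FPKM in MESO, 239 FPKM in NPC and 383 FPKM in NCSC. DE lay below and the other 3 derivatives above all hESC values. The rise in NCSC was 6.33-fold, a log2 change of 2.64 with q = 0.000455 in the authors' deposited table. In NPC the change was 1.88 with q = 0.000323, and in MESO it was 1.13 with q = 0.0253, in the authors' deposited tables. The DE level was 4.13-fold lower, a change of -1.97 that ranked 106 from the lowest of 14764 loci. It had p = 0.00575 but q = 0.239 in the authors' deposited table and did not pass.

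Because DDIT4 also answers to ATF4, the main stress factor of amino acid shortage, 7 genes of that response were read beside it. PSAT1, also of that response, was left out because its deposited levels and statistic contradicted each other in NCSC. In MESO 2 of the 7 rose, where 9.05% of all loci rose. These were ATF3, from 9.20 to 57.4 FPKM, and TRIB3, from 3.53 to 16.0 FPKM. In NPC none rose, and ATF4 itself fell from 235 to 128 FPKM and ASNS, asparagine synthetase, from 106 to 59.8 FPKM. In NCSC none rose, and CHAC1 fell from 18.9 to 5.31 FPKM and ASNS from 100 to 58.6 FPKM. None of the 7 passed in DE, where 0.406% of all loci rose and 0.0203% fell. The 2 of 7 that fell in NPC and in NCSC are near the 24.8% and 19.8% of all loci that fell there. The lack of rises in both is near the 12.0% and 10.2% of all loci that rose there. The median change of the list was 0.88 in MESO, -0.36 in NPC, -0.25 in NCSC and 0.02 in DE. Whether ATF4 had a part in the DDIT4 level of any cell type was not tested. The DDIT4 relative DDIT4L rose in NPC from 2.38 to 8.41 FPKM and fell in NCSC from 2.19 to 0.465 FPKM.

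BNIP3, a mitochondrial protein that promotes the removal of mitochondria (hg19, chr10:133747959-133795481), was higher in all 4 derivatives. Its hESC values were 16.3 to 18.6 FPKM, and it stood at 70.1 FPKM in DE, 44.9 FPKM in MESO, 39.4 FPKM in NPC and 57.6 FPKM in NCSC. All 4 derivative values lay above the 4 hESC values, a placing that carries no spread between libraries. BNIP3 rose 2.76-fold in MESO, a log2 change of 1.41 with q = 0.0298, and 3.35-fold in NCSC, a change of 1.69 with q = 0.0111, in the authors' deposited tables. Both calls were lost with normal p-values from the score or a q-value below 0.01, as were those of HIF1A and DDIT4 in MESO. The highest level, in DE, was a 4.04-fold difference with a change of 1.95, and it did not pass, with p = 0.09195 and q = 0.999 in the authors' deposited table. In NPC the change of 1.05 had p = 0.04565 and q = 0.112 in the authors' deposited table and did not pass either. The deposited locus was 47523 bases long in the DE, NPC and NCSC tables and 16748 bases in the MESO table, so the locus was not drawn alike in all 4. BNIP3 is thus a member whose fold was largest in the table where fewest loci were called.

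ADM, the precursor of the vasodilating peptide adrenomedullin (hg19, chr11:10326641-10328923), fell in NPC and did not pass in the other 3 tables. Its hESC values were 13.4 to 16.0 FPKM, and it stood at 22.4 FPKM in DE, 18.2 FPKM in MESO, 2.85 FPKM in NPC and 26.3 FPKM in NCSC. NPC lay below and the other 3 above all hESC values. The 5.61-fold lower level in NPC was a log2 change of -2.14 with q = 0.000323, the lowest q of the authors' deposited table. In NCSC the change of 0.77 had p = 0.0173 and q = 0.0645 in the authors' deposited table, and the changes in DE, 0.70, and MESO, 0.30, did not pass. RAMP2, which gives the adrenomedullin receptor its ligand preference, fell in NPC from 12.7 to 3.14 FPKM. RAMP3, with the same role, was at 0.849 FPKM in hESC and listed at 0 in NCSC, where it was called as falling.

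CA9, a cell surface carbonic anhydrase used as a marker of hypoxic tumours (hg19, chr9:35673914-35681154), was near silent. In DE, MESO and NPC it stood at 0.438, 0.0977 and 0.181 FPKM, against hESC values of 0.427, 0.336 and 0.357 FPKM in the same tables. It did not pass in DE and was not tested in MESO or NPC. In the NCSC table the symbol was on 2 rows. The row kept by the rule went from 1.45 to 4.31 FPKM, a change of 1.12 with q = 0.240 in the authors' deposited table, but 20 of the 20 genes nearest by number lay on the opposite strand. The row among own-strand genes went from 0.335 to 0.354 FPKM, a change of 0.02, with no test. The high hESC value of CA9 in the NCSC table belongs to that other row. Its relative CA2, a cytosolic carbonic anhydrase, rose in MESO from 10.9 to 68.6 FPKM.

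ANKRD37, a small ankyrin repeat protein known as a direct HIF target (hg19, chr4:186317839-186347139), had large ratios and no call. Its hESC values were 1.20 to 1.61 FPKM, and it stood at 0.177 FPKM in DE, 1.17 FPKM in MESO, 7.20 FPKM in NPC and 4.30 FPKM in NCSC. NPC and NCSC lay above, and DE and MESO below, the 4 hESC values, which are no measure of spread. MESO lay just below the lowest of them, with q = 0.964 in the authors' deposited table. The changes were 1.65 in NPC, with q = 0.337, and 1.02 in NCSC, with q = 0.494, in the authors' deposited tables. In DE the change was -0.90. The deposited statistic was small beside the ratio, since the log2 ratio divided by the statistic was 7.28 in DE and 1.77 in NPC against table medians of 0.71 and 0.43. The deposited locus of ANKRD37 was 29301 to 30216 bases long.

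Other HIF targets outside glycolysis were read as a list of 27 genes. In NCSC 16 rose and 3 fell, where 10.2% of all loci rose and 19.8% fell. In NPC 12 rose and 5 fell of 26 tested, where 12.0% of all loci rose and 24.8% fell. In MESO 6 rose and none fell, where 9.05% of all loci rose and 5.38% fell. In DE none of 27 passed, where 0.406% of all loci rose and 0.0203% fell. The falling counts in NPC and NCSC are thus no higher than the shares of all loci. Under other call rules the 19 called in NCSC became 13 to 18, and the 17 in NPC became 12 to 16. The median change was 0.94 in NCSC, -0.08 in NPC, 0.57 in MESO and 0.19 in DE. The members named by the size of their change differed between cell types. In NCSC these were P4HA1, a collagen prolyl hydroxylase subunit, from 19.6 to 142 FPKM, PPFIA4, a liprin, from 2.12 to 17.9 FPKM, GBE1, the glycogen branching enzyme, from 5.37 to 36.3 FPKM, and HILPDA, a lipid droplet protein, from 12.1 to 52.2 FPKM. In MESO they included BHLHE40, a transcriptional repressor, from 1.63 to 44.7 FPKM, PLOD2, a collagen lysyl hydroxylase, from 12.1 to 62.2 FPKM, and LOX, a collagen cross-linking oxidase, from 0.264 to 3.88 FPKM.

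In NPC the same list moved both ways. WSB1, part of a ubiquitin ligase, rose from 49.7 to 210 FPKM and TMEM45A rose from 9.61 to 32.3 FPKM, whereas RAB20 fell from 14.5 to 0.523 FPKM and PLOD2 fell from 16.6 to 4.03 FPKM. PLOD2 thus rose in MESO and fell in NPC. VEGFA, the angiogenic growth factor, which was chosen for naming after its values were seen, rose in NPC from 15.4 to 35.4 FPKM and in NCSC from 14.5 to 41.7 FPKM. It did not pass in DE, from 14.6 to 25.0 FPKM, or in MESO, from 13.7 to 32.0 FPKM. In DE the most abundant genes of the list were FAM162A, from 462 to 213 FPKM, and WSB1, from 54.6 to 98.6 FPKM, neither of which passed. The hESC level of FAM162A itself was 462 and 372 FPKM in the DE and MESO tables but 44.9 and 41.9 FPKM in the NPC and NCSC tables, so its values cannot be compared across tables.

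Glycolytic HIF targets were fewer after SLC2A1, GPI and LDHA had been left out, because in at least 1 table their deposited levels and statistics contradicted each other or were written differently from the rest. Of 11 tested genes 7 rose and 1 fell in NCSC, against 10.2% and 19.8% of all loci. In NPC 3 rose and 4 fell, against 12.0% and 24.8%, and in MESO 1 rose and 1 fell, against 9.05% and 5.38%, which is near the background. In DE none of 10 passed, where 0.406% of all loci rose and 0.0203% fell. Median changes were 0.75 in NCSC, -0.42 in NPC, -0.04 in MESO and 0.31 in DE. These counts depended on the call rule: the 8 called in NCSC became 3 or 4, and the 7 in NPC became 4, with normal p-values from the deposited score, a minimum log2 change of 1 or a q-value below 0.01. PFKFB4, which makes the activator of phosphofructokinase, rose from 4.21 to 37.1 FPKM in NCSC and from 4.28 to 17.8 FPKM in NPC. PDK1, which keeps pyruvate out of mitochondria, rose from 6.21 to 23.9 FPKM in NCSC, and PGM1, a glycogen enzyme, fell in NPC from 71.2 to 12.9 FPKM. In MESO the glucose transporter SLC2A3 rose from 182 to 553 FPKM and the aldolase ALDOC fell from 40.5 to 14.4 FPKM. In DE SLC2A3 went from 249 to 1265 FPKM and ENO1, enolase, from 792 to 1406 FPKM, and neither passed.

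**Figure D4:**
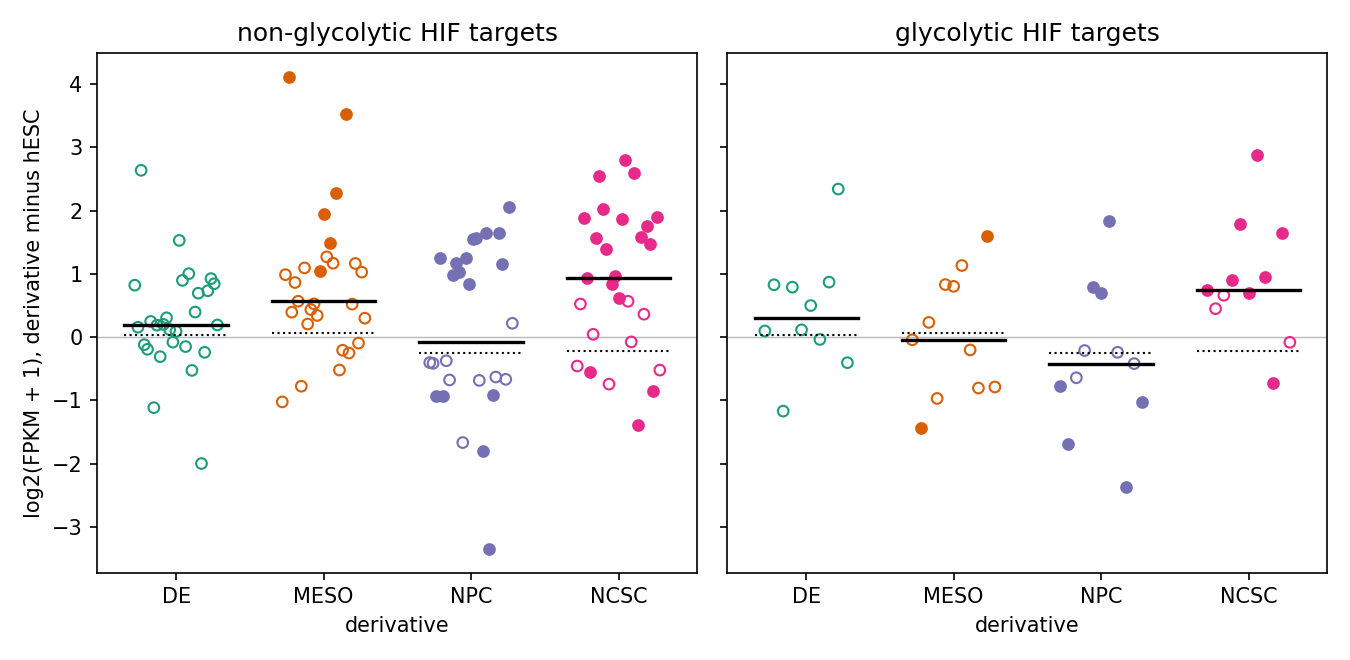
Change in log2(FPKM + 1) of each tested gene of the non-glycolytic (left) and glycolytic (right) HIF target lists, by derivative, filled at an authors' q-value below 0.05; the solid line is the list median and the dotted line the median of all tested loci. In NCSC the list medians, 0.94 and 0.75, stand above the dotted line at -0.22, and in NPC filled points lie on both sides of 0.

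Promoters of the listed targets held the cores as follows. For this count the lists were taken whole, so the glycolytic list included genes left out of the calls above. Of 19 matched non-glycolytic targets 13 held ACGTG, 13 held GCGTG and 17 held either, and of 14 matched glycolytic targets the numbers were 11, 9 and 13. The share of all genes with either core was the 47.41% given above. Among the members with ACGTG, EGLN1, DDIT4 and BNIP3 rose in NCSC, and CA9 and ANKRD37 were not called in any table. NDRG1, which also rose in NCSC, had no matched promoter. Whether the cores bear on the calls was not tested.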

How the data were processed

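Per the labels, poly-A RNA of 10 libraries was sequenced. Cufflinks 2.2.1, featureCounts, Subread 1.5.2, TopHat2 2.0.13 and the hg19 build are named in the submitters' processing notes, with no role. The authors deposited 4 tables with FPKM, 1 value per cell type. The test statistic, a signed score, and the p-value and q-value are the authors', per the file headers; loci without a usable test were taken as not tested. The scaling of libraries is not stated in the labels.

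The tables were read with pandas 2.3.3 in Python 3.11.15 and numpy 2.4.6, and drawn with matplotlib 3.10.9. Gene cells were split at commas, chromosomes 1 to 22 and X were kept, and each symbol was read from its row of highest mean FPKM. Changes used a pseudocount of 1, and calls the authors' q-value below 0.05. Merged loci, and 10 symbols whose level and statistic had opposite signs or whose level had more than 6 significant digits, were left out of lists; none was a member. Strand was read, through the reference annotation, from the 20 genes nearest by identifier. Promoters came from RefSeq, GRCh38.p14, and 250 bases were searched.

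All 10 members were named; of each list up to 2 called genes with the largest change, 4 for non-glycolytic targets, or the 2 most abundant where none passed; and the 3 genes nearest to HIF1A and EPAS1. Not every gene so chosen is printed. The members and lists were chosen with earlier results of these data known. The call adjustment was tested on simulated data. Alternatives were pseudocounts of 0.1 and 5, centring, quantile normalization, hESC from the other tables, a q-value of 0.01, a minimum log2 change of 1, a minimum of 1 FPKM, normal p-values from the score, and, chosen after seeing the data, own-strand rows. With 1 value per cell type there is no replicate check, and depth is unknown.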

Additional observations from a re-analysis of the deposited data

Results flagged for a closer look

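EPAS1 was called in opposite directions in different derivatives under the same comparison with hESC. Its log2 change was 7.34 in MESO, where it rose, and -0.96 in NPC and -0.77 in NCSC, where it fell. The difference between the derivatives was not tested, because the tables hold 1 value per cell type. No other member rose in 1 table and fell in another.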

How the results depend on the processing

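No paired analysis was possible because the tables hold 1 combined value per cell type, so neither a fit with the replicate number as a block nor leaving out a library could be run. In MESO the count of 6 called members became 3 with normal p-values computed from the deposited score and 3 at a q-value below 0.01; EPAS1, EGLN1 and NDRG1 remained in both, and HIF1A, BNIP3 and DDIT4 were lost in both. It stayed at 6 with a minimum log2 change of 1 or a minimum of 1 FPKM. In NPC the count of 4 ranged from 3 to 4, EPAS1 being lost with the minimum change. In NCSC the count of 6 ranged from 4 to 5: EGLN3 and BNIP3 were lost with normal p-values and at the stricter q-value, EPAS1 and EGLN3 with the minimum change, and EPAS1 with the minimum level. In DE it was 0 under all 4 of these rules. Called glycolytic targets went from 8 to between 3 and 4 in NCSC and from 7 to 4 in NPC under all rules but the minimum level, and from 2 in MESO to 0 with normal p-values and 1 at the stricter q-value. Called non-glycolytic targets went from 19 to between 13 and 18 in NCSC and from 17 to between 12 and 16 in NPC. In MESO their count of 6 ranged from 4 to 6. With normal p-values 1 glycolytic and 1 non-glycolytic target were called in DE, where none was before. Of 80 recomputed values of the 16 called changes, none reversed. Among uncalled changes 5 changed sign under at least 1 setting, HIF1A in NPC, EPAS1 in DE, CA9 in DE and NPC, and EGLN3 in MESO. The pseudocount set the size of the EPAS1 change in MESO, 8.22 with 0.1 and 5.75 with 5. Without counts, the precision of low levels, such as those of EPAS1 in NPC and NCSC and of CA9 in MESO and NPC, is unknown.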
